A study of Mus musculus with 48 samples.

Results

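The cytosolic ribosomal protein genes encode the proteins of the ribosomes that translate nuclear-encoded mRNA, as opposed to the ribosomes of mitochondria. Members were chosen by symbol, as every gene named Rpl, Rps or Rplp followed by its number, with an optional a, x or y and a last digit, together with Rpsa. Pseudogene symbols and the paralogs Rpl10l and Rps27l were left out, and a level of at least 10 TPM was required in at least 3 of the 9 RNA libraries. TPM, a length-normalised transcript abundance, divides each gene's reads by its length and scales every library to the same sum, so it is a share of the library's mRNA. The rule found 78 genes among the 48321 rows of the deposited table: 43 of the large subunit, 32 of the small subunit and the 3 stalk genes Rplp0, Rplp1 and Rplp2. All 78 reached 10 TPM in all 9 libraries. The only other row that fitted the name pattern, Rps3a2, reached at most 0.326 TPM. The rule used levels only as a minimum and no comparison between lines.

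The libraries came from the male mouse embryonic stem cell line R1 of strain 129SV, in 3 genotypes of 3 libraries each: wild-type (WT), Mll3/4 dKO, a knockout of both H3K4 methyltransferases, Mll3 (gene Kmt2c) and Mll4 (gene Kmt2d), and Mll3/4 dCD, whose Mll3 and Mll4 are catalytically deficient. All 3 were grown without serum in N2B27 with the MEK inhibitor PD0325901, the GSK3b inhibitor CHIR99021 and LIF, which hold the cells in naive pluripotency, and mRNA was purified by oligo(dT). The series asked what Mll3 and Mll4 contribute to transcription apart from their methylation of H3K4, and the comparisons below ask what the mRNA of the ribosomal protein genes did in each line. The labels name 1 line per genotype, give no edited part of either gene and do not say whether replicates were separate cultures, so a p-value covers no more than the spread among these libraries, which may be technical, and a clone and its genotype cannot be told apart.

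A ribosome holds 1 copy of most of its proteins, and the stalk of the large subunit, which recruits the translation factors, holds Rplp0 with dimers of Rplp1 and Rplp2. Cells therefore make the proteins in matched amounts. In mammals much of this matching happens in translation: ribosomal protein mRNAs begin with a terminal oligopyrimidine tract (TOP), a C followed by a run of pyrimidines, through which LARP1 and the kinase mTOR switch the whole group on and off. Their promoters are active in nearly every cell, often lack a TATA box and are known for binding ETS factors, SP1, YY1 and Myc. Proteins made in excess are degraded, and free Rpl5 and Rpl11 bind Mdm2 and stabilise p53. mRNA levels are therefore 1 of several layers of control, and protein and translation were not measured in the data used here.

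Depth, recovered from the TPM steps, was 21090624 to 56249770 reads per library, and the median member held 11534 to 31028 reads, so counting error was small for all members but Rpl24, which held 169 to 347 reads. Kmt2c stood at 21.6, 19.7 and 21.9 TPM in the WT libraries, 8, 7.55 and 7.44 TPM in the dKO and 28.6, 25.3 and 27 TPM in the dCD libraries. Kmt2d stood at 67.4, 65.2 and 66.6 TPM in the WT libraries, 84.8, 80.5 and 83.5 TPM in the dKO and 67.2, 54.6 and 67.8 TPM in the dCD libraries. Kmt2c was thus low in the 3 dKO libraries, and Kmt2d was not. A level over the whole gene does not check an edit whose place is not given. Of 9 embryonic stem cell markers, 7 were lower and 1, Klf4, was higher in dKO than in WT. In dCD, 8 of the 9 were lower. Over all tested genes 28.4% were lower in dKO and 29.5% in dCD. Their summed level was 8425 to 8545 TPM in WT, 6421 to 6464 TPM in dKO and 6009 to 6117 TPM in dCD. Of 12 fibroblast and feeder markers, 7 (Dcn, Lum, Pdgfra, Fap, Postn, Col6a1 and Col6a2) were under 1 TPM in all 9 libraries. The 12 summed to 8.57 to 10.1 TPM in WT, 20.2 to 22.3 TPM in dKO and 31.4 to 33.5 TPM in dCD. Of the 5 tested, 3 were higher and 1 lower in dKO, and 5 were higher in dCD. Over all tested genes 43.4% were higher in dKO and 28.9% in dCD. In the first WT and dKO libraries Col1a1 stood at 0.548 and 10.1 TPM, and Thy1 at 2.22 and 0.223 TPM. These markers moved with genotype, not all in the same direction, and their part in the values below was not tested. In bulk RNA a gene's share of the mRNA cannot tell less RNA per cell from fewer cells that make it.

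The start of transcription is where a TOP mRNA is defined, so the starts of 7 members on which the comparisons turn are printed here, 30 bases each, 5′ to 3′, with the start listed by RefSeq (GRCm38.p6) at base 13. Capitals mark the unbroken run of C and T that holds the listed start, as far as it lies within the window. Rps15a, Rps9 and Rpl15 were higher than WT in both mutant lines on the deposited scale. Rps18 was lower in both lines, Rpl35 was lower in dKO, and Rps24 and Rpl7a were called in opposite directions.
Rps15a (chr7:118116130-118116159, minus strand): tctttctgccaTCTTCCCTCgccggtgagt
Rps9 (chr7:3704029-3704058, plus strand): gccttgTCTCTCTTTgtctcgggcctgagt
Rpl15 (chr14:18270969-18270998, minus strand): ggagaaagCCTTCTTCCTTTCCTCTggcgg
Rpl35 (chr2:39005114-39005143, minus strand): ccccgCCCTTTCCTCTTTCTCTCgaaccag
Rps18 (chr17:33955648-33955677, minus strand): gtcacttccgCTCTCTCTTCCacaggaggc
Rps24 (chr14:24490666-24490695, plus strand): gcgctggggTCCTTCCTTgcgcgttgatat
Rpl7a (chr2:26910795-26910824, plus strand): CCCTCTTCTTTCTTTCTCCagcagccgagc
Members that rose and members that fell both hold such a run, and these 7 were picked among members that have one. RefSeq promoters of 300 bases, 250 before and 50 from the listed start on, matched 57 of the 78 members by symbol. A pyrimidine run of at least 5 bases held the listed start in 20 of the 57 (35.1%), against 11.8% of 27025 genes. A run of at least 8 bases lay within 30 bases of the start in 32 of them (56.1%), against 25.8% of all genes. Searched on both strands, CCGGAAG, the core of ETS sites such as those of GABPA, was in 42.1% of the members' promoters and 9.93% of all. GGGCGG, the core of SP1 sites, was in 61.4% and 38.2%, and AAGATGGC, found in YY1 sites, in 8.77% and 3.19%. CACGTG, the E-box that Myc and Max can bind, was in 10.5% and 8.09%. These are matches of letters, not sites. The deposited values were made on mm9, and no coordinates were carried between the builds.

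The members were among the most abundant mRNAs of these cells. In WT their summed level was 128130, 133278 and 131557 TPM, so that 78 genes held 13.1% ± 0.262 (SD, n = 3) of the mRNA as TPM counts it. They held 4.79 to 5.25% of reads per library, less than of TPM because the mRNAs are short. The median member stood at 1108 TPM in WT, and the quartiles were 663 and 1999 TPM. The 5 highest were Rplp1 of the stalk at 10385 ± 349 TPM (SD, n = 3), Rps12 at 8484 ± 186, Rpl8 at 7197 ± 121, Rpl4 at 5392 ± 79.7 and Rps26 at 4753 ± 166 TPM. Together these held 27.6% of the members' sum. Rps26 and the next in order, Rps15 at 4719.9 ± 143 TPM, did not differ beyond their spread. The lowest were Rpl24 at 24.7 ± 2.47 TPM, Rpl13a at 143 ± 9.12 TPM and Rps15a at 164 ± 3.76 TPM. Proteins needed in similar numbers were thus encoded by mRNAs whose listed levels spanned from 24.7 to 10385 TPM. Lengths in the table are of whole gene models (6270 bases for Rps15a, 495 for Rplp1), and reads on near-identical pseudogenes may be missing from a member, so levels between members are less certain than the same gene across libraries. Between replicates the members were steady: the median coefficient of variation was 2.69% in WT, 1.98% in dKO and 2.41% in dCD.

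**Figure D1:**
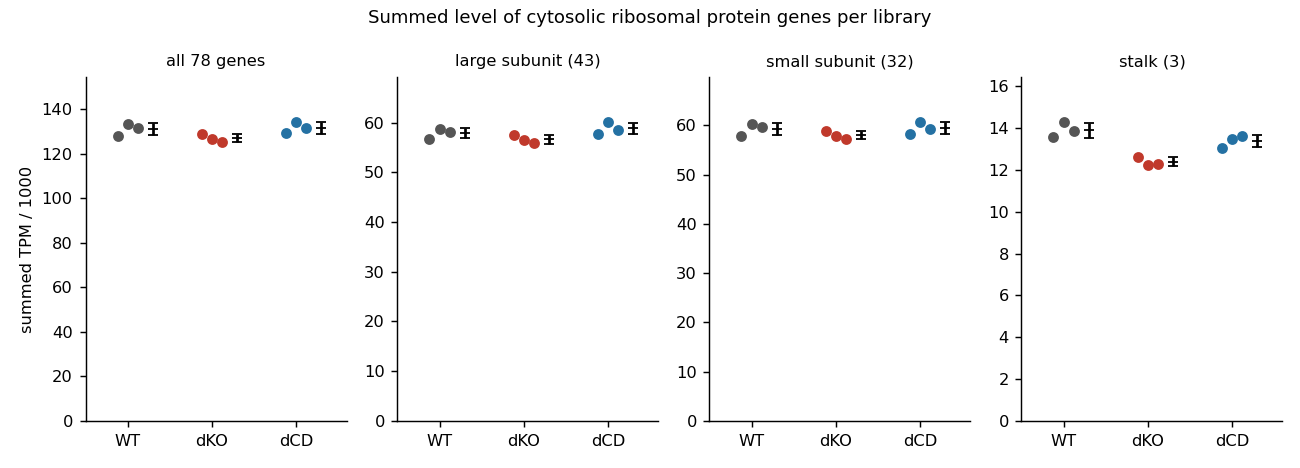
Summed level of the ribosomal protein genes in each library, in units of 1000 TPM, for all 78 genes and for the large subunit, small subunit and stalk genes. Points are libraries and bars are mean ± SD (n = 3). On the deposited scale the sums of all genes and of both subunits in each mutant line overlap those of WT. The 3 dKO stalk sums (12224 to 12618 TPM) lie below the WT sums (13569 to 14286 TPM). Rplp1 holds most of the stalk sum, and Rplp0 rose in dKO. With median-ratio scaling the log2 ratio of the total of all 78 genes was -0.149 in dKO against WT.

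On the deposited scale the total moved little between lines. The summed level was 128976, 126565 and 125295 TPM in dKO and 129151, 134291 and 131379 TPM in dCD, and both ranges overlap the WT libraries, while every dKO library was below every dCD library. In share of TPM this is 12.7% ± 0.187 in dKO and 13.2% ± 0.258 in dCD (SD, n = 3 each). The 43 large-subunit genes summed to 57863 ± 1048 TPM in WT, 56597 ± 863 in dKO and 58799 ± 1202 in dCD. The 32 small-subunit genes summed to 59227 ± 1237, 57969 ± 831 and 59423 ± 1185 TPM. Both mutant lines overlap WT in either subunit, and dKO lay below dCD without overlap in the large subunit but overlapped it in the small subunit. The stalk sum was 13569, 14286 and 13839 TPM in WT, 12618, 12224 and 12296 TPM in dKO and 13061, 13491 and 13601 TPM in dCD. The dKO libraries were below all WT and dCD libraries, and the dCD libraries overlapped WT. Within the stalk sum, Rplp1 fell from a mean of 10385 TPM in WT to 8531 TPM in dKO. Rplp0 rose from 2033 to 2403 TPM, and Rplp2 stood at 1480 and 1445 TPM. Rescaling the libraries by the median ratio moved the median of all genes in dKO against WT from 0.096 to 0.0055. The members' total then had a log2 ratio of -0.149 in dKO against WT. The overlaps above are those of the deposited scale.

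In dKO against WT, single members moved in both directions by small amounts. On the deposited scale limma called 23 of the 78 members higher and 19 lower at an adjusted p under 0.05. Over all 16179 tested genes, 43.4% were higher and 28.4% lower, so the members' share called higher was below that of all genes and their share called lower was near it, as a description. The median member changed by -0.0068 on the log2 scale and the median tested gene by 0.096. The direction of the group depends on the scaling: the counts were 5 higher and 45 lower after median-ratio scaling, 35 and 14 after quantile normalization, 20 and 20 when each library was rescaled to the sum of the other genes, and 6 and 50 with voom on the recovered reads. Among all tested genes, the shares with a higher and a lower call were 34.8% and 34.9% after median-ratio scaling, 40% and 30.6% after quantile normalization, 42.9% and 28.8% after rescaling to the other genes, and 35.3% and 35.2% with voom. Called the same way in all 5 scalings were 4 members that were higher (Rps15a, Rplp0, Rps9 and Rps20) and 13 that were lower (Rplp1, Rpl39, Rps12, Rpl37a, Rps3, Rpl35, Rps24, Rpl8, Rps4x, Rps18, Rpl21, Rps6 and Rpl6), against 33.9% and 27.8% of all tested genes.

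The changes of the members covered a narrow range. The largest fold was 1.26 and the smallest 0.822, so no member reached 1.5-fold whatever its p, while 14.5% of tested genes were called higher by at least 1.5-fold and 13.7% lower. Of the 78 members, 69 (88.5%) lay within 0.2 of 0 on the log2 scale, against 33.2% of all tested genes. Among genes with a mean of at least 500 TPM, 91.2% of the 68 members lay within 0.2 of 0 and 51.3% of the 197 other genes, with medians of -0.013 and -0.018. The medians of members and other abundant genes were thus close, and the members' changes were spread less widely, a difference that was not tested. In this band 19 members were higher and 18 lower, against 74 and 85 of the others. Across the 78 members the change had a Spearman correlation of 0.25 with gene length. Its correlation with the WT level was -0.30, a sign favoured by construction because WT is the denominator of the change. These points share libraries, and long genes had higher values over the whole table as well, with a median log2 fold change of 0.019 for genes under 1000 bases and 0.13 for genes of 4000 bases or more.

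**Figure D2:**
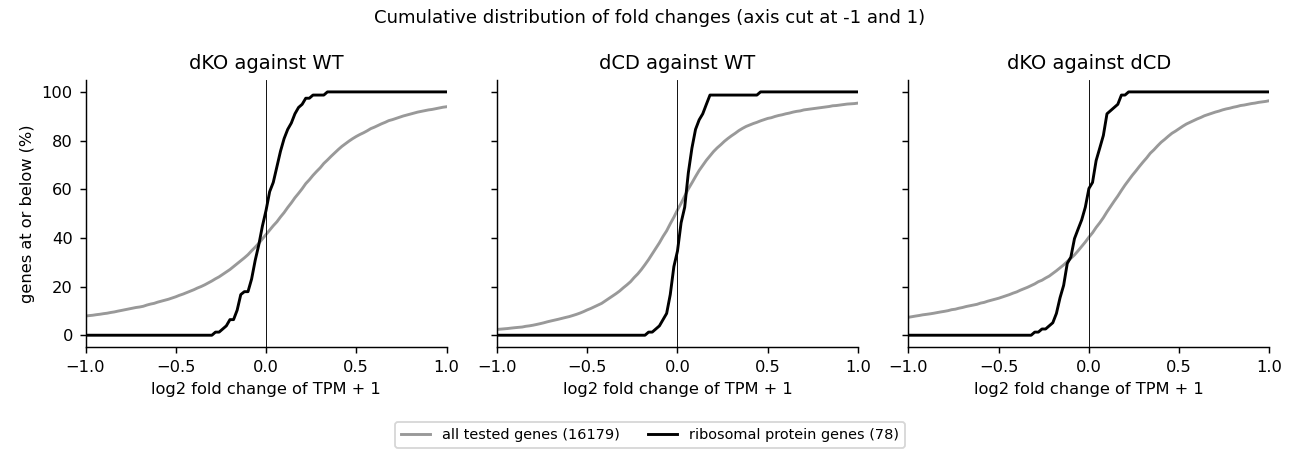
Cumulative share of genes (vertical axis, percent) at or below each log2 fold change of TPM + 1 (horizontal axis, shown from -1 to 1), for the 78 ribosomal protein genes and all 16179 tested genes in the 3 comparisons. The ribosomal protein curve is steep around 0, with 88.5% of members within 0.2 in dKO against WT and 98.7% in dCD against WT, on the deposited scale; the position of the curve against 0 moves with the scaling.

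**Figure D3:**
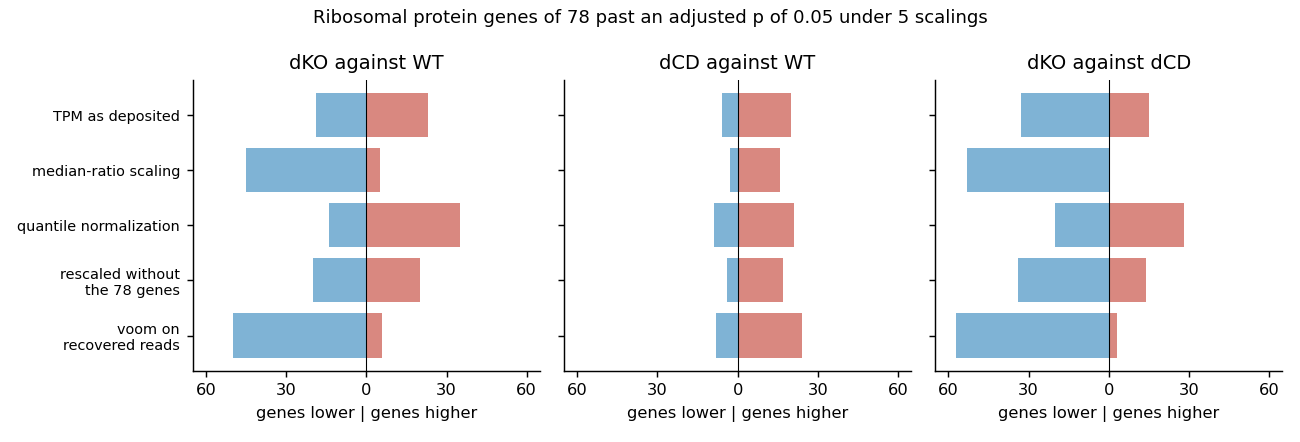
Number of the 78 ribosomal protein genes called lower (left) or higher (right) at an adjusted p under 0.05 under 5 scalings of the same libraries. In dKO against WT the balance runs from 5 higher and 45 lower to 35 higher and 14 lower, and in dKO against dCD it also flips, while in dCD against WT the higher genes outnumber the lower ones under all 5.

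Of the 43 large-subunit genes, 10 were higher and 10 lower in dKO on the deposited scale, against 43.4% and 28.4% of all tested genes. Rpl39, a small protein in the wall of the exit tunnel, stood at 394, 436 and 427 TPM in the WT libraries and 356, 359 and 337 TPM in the dKO libraries, which is a log2 fold change of -0.26 (SE 0.053, adjusted p = 0.00136 by limma). Rpl37a, a zinc-finger protein, stood at 2335, 2472 and 2460.3 TPM in the WT libraries and 2168, 2095 and 2045 TPM in the dKO libraries, a change of -0.20 (SE 0.0325, adjusted p = 0.000224 by limma). In both the 3 dKO libraries lay below all WT libraries. Rpl35, which sits at the mouth of the tunnel, stood at 656, 680.3 and 648 TPM in the WT libraries and 593, 589 and 580.0 TPM in the dKO libraries, a change of -0.17 (SE 0.0246, adjusted p = 0.00011 by limma). Rpl8, near the peptidyl transferase centre, stood at 7194, 7319 and 7077 TPM in the WT libraries and 6513, 6464 and 6415 TPM in the dKO libraries, a change of -0.15 (SE 0.0185, adjusted p = 2.68e-05 by limma). The groups did not overlap for either. Rpl38, known for its part in the translation of Hox mRNAs, stood at 1677, 1781 and 1792 TPM in the WT libraries and 1619, 1582 and 1524 TPM in the dKO libraries, a change of -0.15 (SE 0.0362, adjusted p = 0.00334 by limma), and was not called in all 5 scalings. Among those higher, Rpl13a, which also acts outside the ribosome in translational silencing, stood at 134, 152 and 144 TPM in the WT libraries and 169.5, 166 and 163 TPM in the dKO libraries, a change of 0.22 (SE 0.0422, adjusted p = 0.000913 by limma). Rpl15 stood at 514, 522 and 517 TPM in the WT libraries and 568, 582 and 584 TPM in the dKO libraries, a change of 0.16 (SE 0.0184, adjusted p = 2.16e-05 by limma). Every dKO library was above every WT library for these 2, but neither call held in all 5 scalings. Rpl18 (0.12), Rpl5 (0.11) and Rpl28 (0.11) were also called higher on the deposited scale but not in all 5. Rpl11, the partner of Rpl5 in binding Mdm2, was at -0.0084 and not called on the deposited scale, but median-ratio scaling and voom called it lower, both at -0.11.

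Of the 32 small-subunit genes, 12 were higher and 8 lower in dKO on the deposited scale, against 43.4% and 28.4% of all tested genes. Rps15a stood at 159.9, 165 and 167 TPM in the WT libraries and 207, 208 and 204 TPM in the dKO libraries, which is a log2 fold change of 0.33 (SE 0.03, adjusted p = 3.17e-06 by limma). This was the largest rise among the members, with no overlap of the libraries. Rps9, near the mRNA entry channel, stood at 941, 936 and 899 TPM in the WT libraries and 1072, 1059.8 and 1057 TPM in the dKO libraries, a change of 0.20 (SE 0.0222, adjusted p = 1.5e-05 by limma). Rps20, in the head of the subunit, stood at 638, 678 and 687 TPM in the WT libraries and 776, 763 and 758 TPM in the dKO libraries, a change of 0.20 (SE 0.0289, adjusted p = 0.000116 by limma). The dKO libraries were all above WT for both. Rps13 (0.17), Rps28 (0.16) and Rps25 (0.14), the last known for its part in internal ribosome entry, were called higher on the deposited scale but not in all 5. Rps12 stood at 8274, 8629.8 and 8548 TPM in the WT libraries and 7355, 7222 and 7249 TPM in the dKO libraries, a change of -0.22 (SE 0.0245, adjusted p = 1.48e-05 by limma). Rps3, which lines the mRNA entry and also acts in DNA repair, stood at 1064, 1080.2 and 1041 TPM in the WT libraries and 927, 936 and 904 TPM in the dKO libraries, a change of -0.20 (SE 0.0204, adjusted p = 6.76e-06 by limma). Both were lower in each dKO library than in any WT library. Rps18 was lower as well, at -0.14 (SE 0.0226, adjusted p = 0.000238 by limma). Rps6, the target of the S6 kinases, fell by a smaller amount, -0.094 (limma adjusted p = 0.0015).

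The 3 stalk genes moved apart in dKO. Rplp0, the base of the stalk, stood at 2078, 2042 and 1978 TPM in the WT libraries and 2414, 2387 and 2407 TPM in the dKO libraries, which is a log2 fold change of 0.24 (SE 0.023, adjusted p = 4.61e-06 by limma). Rplp1 stood at 10051, 10748 and 10357 TPM in the WT libraries and 8725, 8417 and 8452 TPM in the dKO libraries, a change of -0.28 (SE 0.0285, adjusted p = 7.1e-06 by limma), which was the largest fall among the members. Both calls held in all 5 scalings, and the libraries did not overlap. Rplp2 stood at 1440.1, 1496 and 1504 TPM in the WT libraries and 1479, 1421 and 1437 TPM in the dKO libraries, a change of -0.034 (SE 0.0265, adjusted p = 0.269 by limma), and was not called on the deposited scale. It was called lower with median-ratio scaling and voom, both at -0.14, and higher, at 0.11, after quantile normalization. Its libraries overlapped.

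In dCD against WT single members again moved by small amounts. On the deposited scale limma called 20 members higher and 6 lower, against 28.9% and 29.5% of all tested genes. The median member changed by 0.031 and the median tested gene by -0.0086. The largest fold was 1.37 and the smallest 0.892, and 77 of the 78 members (98.7%) lay within 0.2 of 0 on the log2 scale, against 48.5% of all tested genes. No member reached 1.5-fold, while 9.04% of tested genes were called higher and 7.63% lower by at least that much. Among genes of at least 500 TPM the medians were 0.027 for 68 members and 0.028 for 197 others, and 100% and 69.5% lay within 0.2. More members were higher than lower under all 5 scalings. The counts were 16 higher and 3 lower with median-ratio scaling, where 29.3% and 29.6% of tested genes were called, 21 and 9 with quantile normalization (28.6% and 31.3%), 17 and 4 with rescaling to the other genes (29.1% and 29.5%), and 24 and 8 with voom (30.4% and 30.9%). Called higher under all 5 were 15 members and lower 1, Rps18, against 27.2% and 28.1% of all tested genes. The count of 20 was 13 without a filter on low genes, where 5204 of all 31900 genes were higher. The count of 6 was 3 without WT replicate 2 or without dCD replicate 1, where 4538 and 4542 of 16179 genes were lower.

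Of the large-subunit genes 9 were higher and 1 lower in dCD, of the small-subunit genes 10 and 4, and of the stalk genes 1 and 1. Among all tested genes 28.9% were higher and 29.5% lower. Rps15a again had the largest rise: it stood at 224, 234 and 217 TPM in dCD, a log2 fold change from WT of 0.45 (SE 0.03, adjusted p = 6.01e-07 by limma). Rpl36a stood at 493, 527 and 509 TPM in the WT libraries and 574, 588 and 559 TPM in the dCD libraries, a change of 0.17 (SE 0.0299, adjusted p = 0.000693 by limma). Rpl5, a carrier of 5S rRNA, stood at 636, 647 and 664 TPM in the WT libraries and 720.3, 744 and 727 TPM in the dCD libraries, a change of 0.17 (SE 0.021, adjusted p = 6.01e-05 by limma). For these 3 genes every dCD library was above every WT library. Rplp0 stood at 2238, 2330.5 and 2298 TPM in dCD, a change of 0.17 (SE 0.023, adjusted p = 0.000106 by limma), and Rplp1 9441, 9706 and 9864 TPM, a change of -0.10 (SE 0.0285, adjusted p = 0.0106 by limma). As in dKO, Rplp0 was above and Rplp1 below all WT libraries. The other members called lower on the deposited scale were Rpl23a (-0.13), Rps12 (-0.093), Rps18 (-0.077), Rps15 (-0.076) and Rpsa, the laminin receptor precursor (-0.054). Of these and Rplp1, Rps18 alone was called in all 5 scalings, and Rps12 was at 0 after quantile normalization. That scaling gives a gene of unchanged rank the same value in every library, so it could not call Rps12. Rps12 and Rplp1 were called lower with median-ratio scaling, rescaling to the other genes and voom. Rpl24 had the lowest fitted change, -0.17 (SE 0.08, adjusted p = 0.102 by limma), which did not pass the test on that scale but did with voom, at -0.21, with 21.8, 26.4 and 25.8 TPM in the WT libraries and 22.4, 23.3 and 19.9 TPM in the dCD libraries.

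**Figure D4:**
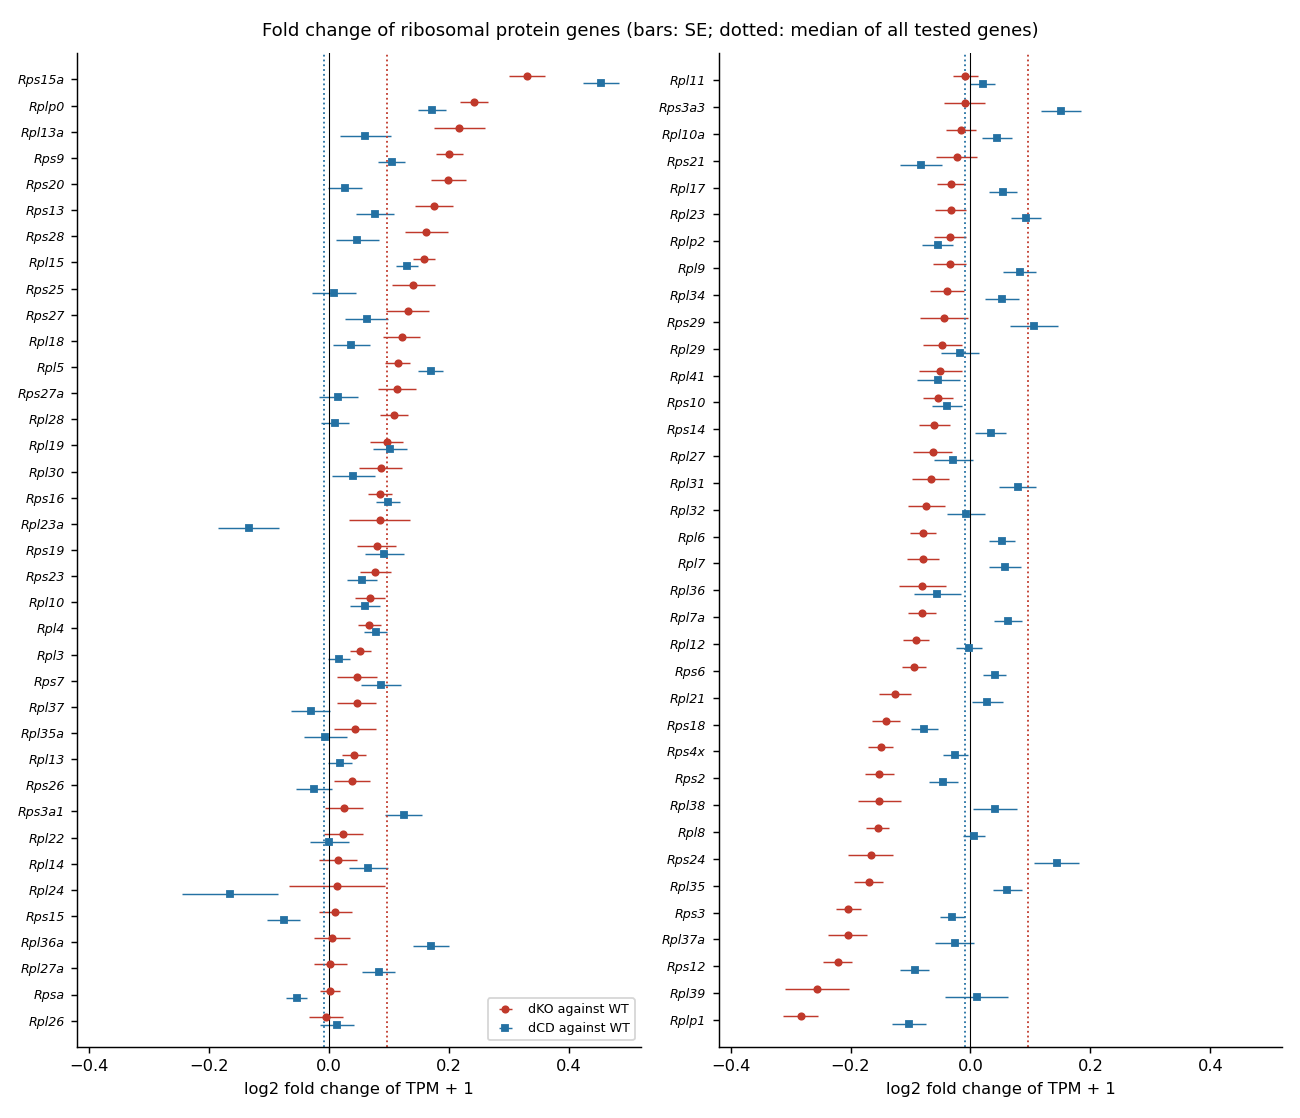
Log2 fold change of TPM + 1 (horizontal axis) of 73 of the 78 genes in dKO and dCD against WT, ordered by the dKO value, with bars for the SE. Dotted lines mark the median of all tested genes, 0.096 in dKO and -0.0086 in dCD. On the deposited scale the dKO values run from -0.28 (Rplp1) to 0.33 (Rps15a) and straddle 0; median-ratio scaling moves their median to -0.11 and quantile normalization to 0.048.

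Both comparisons use the same WT libraries, and their values are set side by side for single genes only. Called in opposite directions on the deposited scale were 2. Rps24, mutated in some patients with Diamond-Blackfan anaemia, stood at 2094, 2194 and 2277 TPM in the WT libraries, 1946, 1935 and 1965 TPM in the dKO and 2367, 2555 and 2331 TPM in the dCD libraries. The dKO libraries were the lowest and the dCD libraries the highest, with no overlap. The changes from WT were -0.17 (SE 0.0378, adjusted p = 0.00248 by limma) in dKO and 0.14 (SE 0.0378, adjusted p = 0.00805 by limma) in dCD, and both held in all 5 scalings. Rpl7a stood at 1707, 1726 and 1683 TPM in the WT libraries, 1659, 1588 and 1591 TPM in the dKO and 1753, 1825 and 1766 TPM in the dCD libraries. Its changes were -0.081 (SE 0.0238, adjusted p = 0.011 by limma) and 0.063 (SE 0.0238, adjusted p = 0.044 by limma), so the opposite calls hold on the deposited scale and with voom. After quantile normalization the values were 0.0034 and 0.0070, neither called, and the dCD call was also lost with median-ratio scaling (limma adjusted p = 0.0876) and with rescaling to the other genes (limma adjusted p = 0.0551).

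Compared directly, dKO had 15 members higher and 33 lower than dCD, where 42.3% of tested genes were higher and 27% lower. The median member differed by -0.029 and the median tested gene by 0.095. The balance flipped with the scaling: 0 higher and 53 lower after median-ratio scaling (32.7% and 34.2% of tested genes), 28 and 20 after quantile normalization (39.9% and 28.9%), 14 and 34 after rescaling to the other genes (41.7% and 27.5%), and 3 and 57 with voom (34.1% and 35.3%). Lower in dKO under all 5 scalings were 20 members, or 25.6%, the same share as among all tested genes. Higher under all 5 were 0 members, against 32.1% of all tested genes. No member differed by 1.5-fold, against 11.2% and 13.2% of tested genes, and folds ran from 0.807 to 1.16. The count of 15 was 9 without dKO replicate 1 or without dCD replicate 1, where 6564 and 6612 of 16179 genes were higher. The largest difference was that of Rps24, -0.31 (SE 0.0378, adjusted p = 3.53e-05 by limma). Rpl39 followed, with 411, 457 and 399 TPM in dCD and a difference of -0.27 (SE 0.053, adjusted p = 0.00114 by limma), then Rpl35, with 679, 708 and 683 TPM in dCD and a difference of -0.23 (SE 0.0246, adjusted p = 1.24e-05 by limma). All 3 dKO libraries were below all dCD libraries for these genes. In the other direction, Rpl23a stood at 635, 613 and 602 TPM in dKO and 497, 573 and 522 TPM in dCD, 0.22 (SE 0.0505, adjusted p = 0.00297 by limma) on the deposited scale, not called in all 5.

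Some of these values are uncertain because the genes have near-identical copies among which reads may be split. The table holds 274 pseudogene rows of ribosomal protein genes, of which 7 reached 10 TPM in at least 3 libraries. The 274 rows summed to 1334 to 1394 TPM in WT, 1525 to 1563 TPM in dKO and 1523 to 1582 TPM in dCD, higher in every mutant library. Rps15a-ps8 measured 257, 275 and 242 TPM in WT and changed by 0.33 in dKO and 0.52 in dCD, beside 0.33 and 0.45 for Rps15a itself. Rplp0-ps1 changed by 0.28 and 0.25, beside 0.24 and 0.17 for Rplp0, and Rpl15-ps2 by 0.16 and 0.17, beside 0.16 and 0.13 for Rpl15. Rps13-ps1 measured 262 ± 27 TPM in WT (SD, n = 3), beside 451 ± 14.2 TPM for Rps13, and changed by 0.22 in dKO, beside 0.17 for Rps13. Rpl3-ps1 changed by 0.078 in dKO, beside 0.052 for Rpl3. Rps2-ps10 and Rpl19-ps11 were not called in either mutant line. In dCD Rpl19-ps11 was at -0.18, beside 0.10 for Rpl19. Several of the members with the largest rises thus had a copy that moved alongside, while not every copy moved with its member. The part of shared reads in these rises was not tested. Rps3a3, itself counted as a member, is likewise close to Rps3a1.

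Some paralogs outside the name rule had changes beyond the range of the members. Of 12 tested, 3 were higher and 6 lower in dKO and 4 higher and 1 lower in dCD. The shares among all tested genes were 43.4% and 28.4% in dKO and 28.9% and 29.5% in dCD. With median-ratio scaling the counts were 1 and 8 in dKO (8.33% and 66.7%), against 34.8% and 34.9% of all tested genes. In dCD they were 4 and 1 (33.3% and 8.33%), against 29.3% and 29.6%. Rpl10l, a copy of the X-linked Rpl10 best known from spermatogenesis, stood at 177, 189 and 188 TPM in the WT libraries, 96.6, 91.5 and 92.8 TPM in the dKO and 527, 547 and 538 TPM in the dCD libraries. It was lowest in the dKO and highest in the dCD libraries, far outside the spread of each line. The changes from WT were -0.97 (SE 0.0305, adjusted p = 1.02e-09 by limma) in dKO and 1.54 (SE 0.0305, adjusted p = 1.31e-10 by limma) in dCD, and dKO differed from dCD by -2.51 (SE 0.0305, adjusted p = 2.38e-12 by limma). Rpl10l made up 19.1% ± 0.494 of the Rpl10 and Rpl10l sum in WT, 10.3% ± 0.235 in dKO and 39.8% ± 0.363 in dCD (SD, n = 3 each). Rpl10 itself was called higher in dKO on the deposited scale, at 0.068, but was at -0.035 and not called with median-ratio scaling and voom. In dCD it was at 0.06, not called (limma adjusted p = 0.0679), and reads of the pair may be split. Rpl39l, the testis-enriched copy of Rpl39, stood at 142, 156 and 144 TPM in the WT libraries, 56.1, 63.5 and 53.8 TPM in the dKO and 236, 253 and 237 TPM in the dCD libraries. It followed the same order, with changes of -1.34 (SE 0.0592, adjusted p = 1.21e-08 by limma) and 0.71 (SE 0.0592, adjusted p = 3.43e-06 by limma). Its share of the Rpl39 and Rpl39l sum was 26.1% ± 0.696 in WT, 14.1% ± 0.785 in dKO and 36.4% ± 0.817 in dCD.

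Rpl7l1, a relative of Rpl7, had the same order with smaller changes, -0.096 (SE 0.028, adjusted p = 0.0102 by limma) in dKO and 0.12 (SE 0.028, adjusted p = 0.00349 by limma) in dCD, and its libraries did not overlap between lines. The paralogs that follow had other orders. Rpl22l1, whose level is known to rise when Rpl22 is lost, stood at 44.2, 47.4 and 49.6 TPM in the WT libraries, 64.9, 73.7 and 64.2 TPM in the dKO and 47.7, 48.7 and 43.7 TPM in the dCD libraries. It was higher in dKO by 0.51 (SE 0.0625, adjusted p = 3.13e-05 by limma), while Rpl22 was at 0.024 and not called on the deposited scale (limma adjusted p = 0.536), and at -0.080 and called lower with voom. Rpl3l, the striated-muscle form of Rpl3, stood at 5.48, 4.84 and 4.97 TPM in the WT libraries, 0.786, 1.66 and 1.54 TPM in the dKO and 1.57, 2.58 and 1.4 TPM in the dCD libraries and was lower in both, at -1.41 and -1.12, at under 1% of the pair's sum in every line. Rps4l, a copy of Rps4x, stood at 1883, 1929 and 1879 TPM in the WT libraries and 1577, 1575 and 1546 TPM in the dKO libraries, a change of -0.28 (SE 0.0207, adjusted p = 7.03e-07 by limma), beside -0.15 for Rps4x. The libraries did not overlap, and reads of the pair may be split. Rps27l, a target of p53, was higher in both on the deposited scale, by 0.20 and 0.25, and not called in dKO with median-ratio scaling or voom. Fau, which makes Rps30, was not called in either mutant line on the deposited scale, but was called lower in dKO with median-ratio scaling, at -0.11 (limma adjusted p = 0.00596), and with voom.

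**Figure D5:**
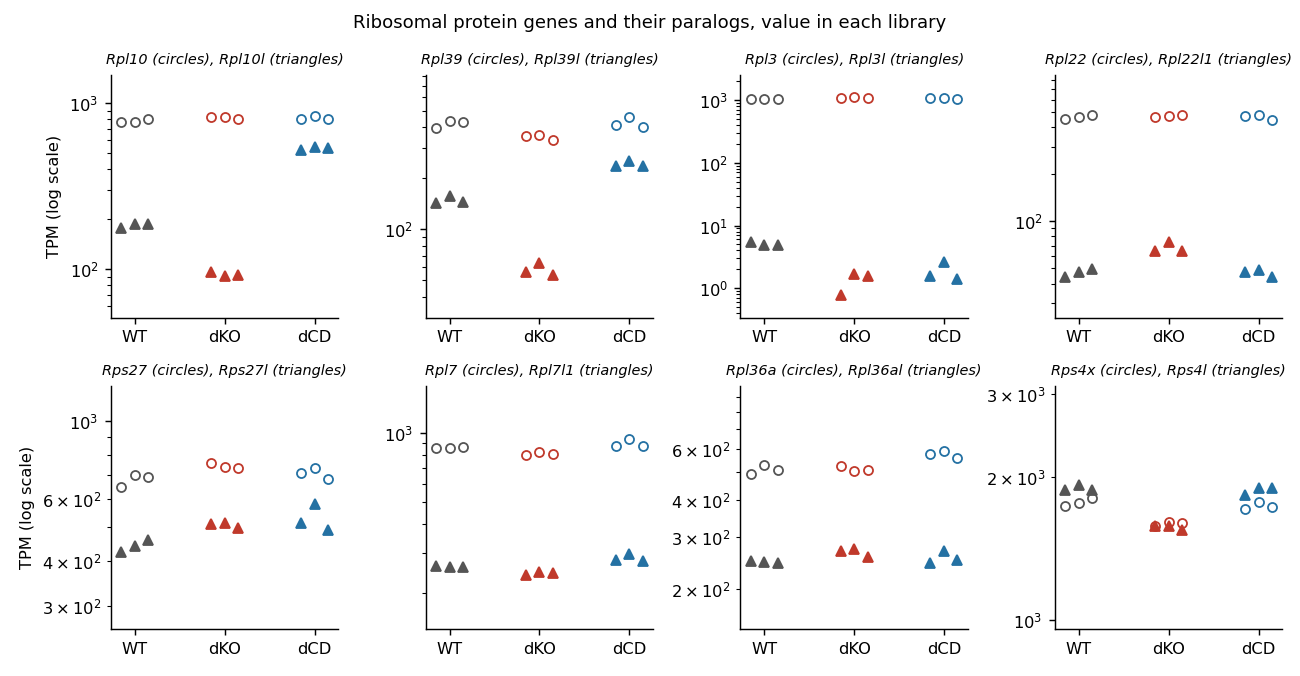
Levels in each library, in TPM on a log axis, of 8 ribosomal protein genes (open circles) and their paralogs (filled triangles); each point is 1 library. The Rpl10l and Rpl39l triangles are lowest in dKO and highest in dCD, under all 5 scalings, while the Rpl10 circles lie at 0.068 in dKO (-0.035 with median-ratio scaling) and 0.06, not called, in dCD (log2 against WT).

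Other mRNAs known to carry a TOP tract were called in both directions. Of 22 tested, 11 (50%) were higher and 8 (36.4%) lower in dKO, against 43.4% and 28.4% of all tested genes, and 8 and 4 (36.4% and 18.2%) in dCD, against 28.9% and 29.5%. With median-ratio scaling the counts were 6 and 10 in dKO and 8 and 3 in dCD, where the shares of all tested genes were 34.8% and 34.9%, and 29.3% and 29.6%. The median was 0.081 in dKO, near the 0.096 of all tested genes. Nap1l1, a histone chaperone, stood at 389, 378 and 400.5 TPM in the WT libraries, 490.4, 506 and 513 TPM in the dKO and 528, 544 and 500.2 TPM in the dCD libraries, higher in both without overlap. Eif4a2, a helicase of initiation, stood at 478, 455 and 498 TPM in the WT libraries, 264, 273 and 292 TPM in the dKO and 399, 389 and 370.2 TPM in the dCD libraries, and fell by 0.79 (SE 0.0442, adjusted p = 7.62e-08 by limma) in dKO. Pabpc1, the poly(A) binding protein, was at -0.0082 in dKO, not called on the deposited scale, called lower with median-ratio scaling (-0.11) and higher after quantile normalization (0.070), and was higher in dCD, at 0.24.

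Of the controls of TOP translation and mTOR, 8 of 21 were higher and 6 lower in dKO (38.1% and 28.6%), near the 43.4% and 28.4% of all tested genes. In dCD 3 and 12 were called (14.3% and 57.1%), against 28.9% and 29.5%. Median-ratio counts were 6 and 11 in dKO (28.6% and 52.4%), against 34.8% and 34.9% of all tested genes. In dCD they were 3 and 11 (14.3% and 52.4%), against 29.3% and 29.6%. Pim1, a growth-promoting kinase downstream of LIF and Stat3, stood at 212, 216 and 218 TPM in the WT libraries, 45.3, 47.6 and 46.9 TPM in the dKO and 129, 124 and 129 TPM in the dCD libraries, a change of -2.19 (SE 0.0265, adjusted p = 2.11e-12 by limma) in dKO. Deptor, an inhibitor of mTOR, stood at 26.2, 25.7 and 28.2 TPM in the WT libraries, 7.57, 7.28 and 7.41 TPM in the dKO and 18.5, 17 and 17.9 TPM in the dCD libraries, a change of -1.72 (SE 0.0474, adjusted p = 4.09e-10 by limma) in dKO. Both were lowest in dKO, with dCD in between. Eif4ebp1, the repressor of cap-dependent initiation, fell by 0.62 in dKO, Tsc2, an inhibitor of mTOR, changed by -0.26 in dKO and -0.39 in dCD, and Pim2 rose by 1.14 and 1.02. Rragd, a GTPase that brings mTOR to lysosomes, stood at 18.7, 16.8 and 18.4 TPM in the WT libraries and 50.9, 50 and 48.7 TPM in the dCD libraries, a rise of 1.42.

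Of 19 factors known to bind ribosomal protein promoters or to act with those that do, 13 were higher and 5 lower in dKO (68.4% and 26.3%), against 43.4% and 28.4% of all tested genes. With median-ratio scaling 8 and 5 were called (42.1% and 26.3%), against 34.8% and 34.9%. In dCD 7 were higher and 7 lower (36.8% each), against 28.9% and 29.5%. Mycn, the Myc family member of early embryos, stood at 143, 148 and 147 TPM in the WT libraries, 281, 283 and 289 TPM in the dKO and 172, 170.3 and 175 TPM in the dCD libraries, a change of 0.96 (SE 0.022, adjusted p = 1.07e-10 by limma) in dKO. Mycl stood at 19.2, 16 and 16.8 TPM in the WT libraries and 4.38, 4.78 and 5.9 TPM in the dKO libraries, a change of -1.61 (SE 0.0956, adjusted p = 1.17e-07 by limma). Mga, a repressor that pairs with Max, stood at 63.4, 60.4 and 66.9 TPM in the WT libraries, 39.9, 40.1 and 41.5 TPM in the dKO and 44.6, 41.9 and 42.5 TPM in the dCD libraries. It was lower in both lines, at -0.64 and -0.55.

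Genes of ribosome assembly were called in both directions. Of 29 components of the small-subunit processome, which cleaves the early rRNA precursor, 12 were higher and 9 lower in dKO (41.4% and 31%), near the 43.4% and 28.4% of all tested genes, and 8 and 7 in dCD (27.6% and 24.1%, against 28.9% and 29.5%). Median-ratio scaling gave 3 and 13 in dKO (10.3% and 44.8%, against 34.8% and 34.9%) and 8 and 7 in dCD. Utp6 (-0.36 and -0.25) and Utp3 (-0.30 and -0.11) were lower in both lines, and Rrp7a (0.36 and 0.28) was higher in both. Of 11 late small-subunit factors, 3 were higher and 3 lower in dKO (27.3% each) and 4 and 4 in dCD (36.4% each). After median-ratio scaling 1 and 7 were called in dKO (9.09% and 63.6%), against 34.8% and 34.9% of all tested genes. In dCD 4 and 4 were called (36.4% each), against 29.3% and 29.6%. Nob1, the nuclease of the last cleavage, was higher in dKO at 0.26, and Bysl was lower there at -0.23. Of 41 large-subunit assembly factors, 19 were higher and 12 lower in dKO (46.3% and 29.3%), or 8 and 18 with median-ratio scaling (19.5% and 43.9%), and 14 and 8 in dCD on either scale (34.1% and 19.5%). Nop16 stood at 73.3, 70.9 and 73.4 TPM in the WT libraries, 126, 126 and 125 TPM in the dKO and 92.7, 95.1 and 93.3 TPM in the dCD libraries, a change of 0.78 (SE 0.0231, adjusted p = 6.29e-10 by limma) in dKO. Sbds, which releases Eif6 from the new subunit, was higher in dCD at 0.30.

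Of 28 genes of RNA polymerase I and the nucleolus, which make and modify rRNA, 12 were higher and 8 lower in dKO (42.9% and 28.6%) and 9 and 8 in dCD (32.1% and 28.6%). These shares are near those of all tested genes, 43.4% and 28.4% in dKO and 28.9% and 29.5% in dCD. Median-ratio scaling gave 10 and 13 in dKO (35.7% and 46.4%), against 34.8% and 34.9% of all tested genes. In dCD it gave 10 and 8 (35.7% and 28.6%), against 29.3% and 29.6%. Polr2e, shared by all 3 nuclear polymerases, stood at 512, 503 and 502 TPM in the WT libraries, 337, 329 and 321 TPM in the dKO and 471, 492 and 496 TPM in the dCD libraries. It was lower in dKO, at -0.62 (SE 0.0257, adjusted p = 7.6e-09 by limma), and not called in dCD. Znrd1, a subunit of polymerase I, changed by 0.69 and 0.30, higher in both. Tcof1, the nucleolar protein mutated in Treacher Collins syndrome, was lower in both, at -0.30 and -0.24. Oligo(dT) selection leaves rRNA itself unmeasured.

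A list of 16 importins, chaperones and quality-control factors includes some that act on new proteins in general. Of these 16, 10 were higher and 1 lower in dKO (62.5% and 6.25%), against 43.4% and 28.4% of all tested genes. With median-ratio scaling 5 and 4 were called (31.2% and 25%), against 34.8% and 34.9%. In dCD 2 and 5 were called on either scale (12.5% and 31.2%), against 28.9% and 29.5%. Bag6, which takes up stray proteins, changed by 0.24 in dKO and Bccip, a partner of Rpl23, by -0.20. Of 12 genes of the Mdm2 and p53 checkpoint that free ribosomal proteins can set off, 9 were higher and 2 lower in dKO (75% and 16.7%) and 7 and 4 in dCD (58.3% and 33.3%), against 43.4% and 28.4%, and 28.9% and 29.5%, of all tested genes. After median-ratio scaling 9 and 3 were called in dKO (75% and 25%), against 34.8% and 34.9% of all tested genes. In dCD 7 and 4 were called (58.3% and 33.3%), against 29.3% and 29.6%. Cdkn1a, which encodes the cell-cycle inhibitor p21, stood at 91.6, 88.5 and 92.4 TPM in the WT libraries, 305, 298 and 299 TPM in the dKO and 159.8, 151 and 161 TPM in the dCD libraries, a change of 1.72 (SE 0.029, adjusted p = 1.54e-11 by limma) in dKO. Cdkn2a stood at 61.8, 63.6 and 63.5 TPM in the WT libraries, 196, 184 and 190.3 TPM in the dKO and 88.1, 87 and 91.1 TPM in the dCD libraries. Both were highest in dKO, and the lines did not overlap. Mdm2 rose by 0.23 and 0.39, and Ei24 changed by -0.91 and -0.42.

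The initiation factors, which load mRNA onto the small subunit, included changes beyond the range of the members. Of 29, 11 were higher and 8 lower in dKO (37.9% and 27.6%), near the 43.4% and 28.4% of all tested genes, and 11 and 7 in dCD (37.9% and 24.1%), against 28.9% and 29.5%. With median-ratio scaling 5 and 15 were called in dKO (17.2% and 51.7%, against 34.8% and 34.9%) and 11 and 7 in dCD. Eif2b5, the catalytic subunit of the exchange factor eIF2B, stood at 512, 515 and 498 TPM in the WT libraries, 211, 210.5 and 206 TPM in the dKO and 323, 336 and 327 TPM in the dCD libraries, a change of -1.28 (SE 0.0223, adjusted p = 1.88e-11 by limma) in dKO. Eif2s2, a subunit of eIF2, stood at 399.7, 405 and 424 TPM in the WT libraries, 189, 193 and 186 TPM in the dKO and 257, 265 and 241 TPM in the dCD libraries. Eif4g3, a scaffold of the cap complex, stood at 16.1, 15.7 and 15.5 TPM in the WT libraries, 52.1, 53.4 and 55.5 TPM in the dKO and 29.4, 28.3 and 29.4 TPM in the dCD libraries. For all 3 the lines did not overlap and dCD lay between WT and dKO.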

How the data were processed

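Of the 48 samples of the series, the 9 polyadenylated RNA libraries were used, grouped by the genotype in their labels, 3 per line; the other sample types were not analysed here. The authors deposited 1 table of TPM with a length per gene. HISAT2, featureCounts, DESeq2 and the build mm9 are named in the submitters' processing notes, without versions or roles. For the annotation, the strand setting and multiply matching reads, the settings were not given in the sources used here, so reads of antisense and overlapping genes cannot be told apart. A date stood in place of the symbol in 27 rows, none of them a member.

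TPM multiplied by length gave whole numbers of reads for 100% of values within 0.01. These recovered reads gave the depth and 1 alternative, and chi-square values per degree of freedom of 1.62 to 4.57 between replicates showed no library deposited more than once.

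The test was that of limma 3.58.1 (R 4.3.3, lmFit, eBayes with trend), run on log2(TPM + 1) for the 16179 genes that reached 1 TPM in at least 3 libraries. The fit held all 9 libraries and no covariate, and tests were two-sided, with Benjamini-Hochberg adjustment over all tested genes and a threshold of 0.05. Fold changes are on that scale, which understates changes of low genes. The limma script was tested on simulated data. A sum over members has no test. Alternatives were other pseudocounts, filters, scalings (median ratio, quantile, rescaling without the members, voom on recovered reads), thresholds, a replicate block and leaving out each library. Python 3.11.15 (pandas 2.3.3, numpy 2.4.6, matplotlib 3.10.9) made the tables and plots.

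The members and all gene lists were chosen with earlier results of these data known. Values in every library are given for the highest and lowest members in WT, for up to 8 called members with the largest rise or fall per comparison, for opposite calls, the stalk, the paralogs and, in the other lists, up to 4 called genes by p-value; for some of these only the change is printed. Promoter windows come from RefSeq (GRCm38.p6), matched by symbol. Values of 6 single genes are not reported here, and 5 of them are left out of the plot of fold changes; counts, medians and sums include them.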

Additional observations from a re-analysis of the deposited data

How the results depend on the processing

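In dKO against WT the counts of members higher and lower, 23 and 19 as reported, became 5 and 45 with median-ratio scaling, 6 and 50 with voom on recovered reads, and 35 higher with quantile normalization; the median log2 change became -0.110, -0.112 and 0.048, and the log2 ratio of the summed TPM -0.149 with median-ratio scaling. In dKO against dCD the counts of 15 and 33 became 0 and 53 with median-ratio scaling, 28 and 20 with quantile normalization, and 3 and 57 with voom, and the median became -0.134, 0.027 and -0.136. In dCD against WT the counts of 20 and 6 became 13 and 1 without a filter. Of all 31900 genes then tested, 5204 were higher and 4788 lower. In that comparison 3 members were lower with median-ratio scaling and 3 with only the 2 lines compared. Of all 16179 genes 4791 and 4652 were lower in these settings. At an adjusted p under 0.01, 12 members were higher and 1 lower in dCD, against 3801 and 3777 of all 16179 tested genes. At that threshold 8 members were higher in dKO than in dCD, against 5882 of all tested genes. At least 1.5-fold was reached by 0 members in each comparison and direction. Sign changes were counted in dKO and dCD against WT over 173 genes (the members, paralogs, copies and list genes whose values are reported). There 35 values of 23 genes changed sign where the reported or the alternative value was called. In dKO, with median-ratio scaling and with voom, they were -0.035 in both for Rpl10, -0.0078 and -0.011 for Rpl19, -0.10 in both for Rpl27a and Rpsa, -0.052 in both for Rpl3, which was called in each direction, -0.098 and -0.10 for Rpl36a, -0.037 in both for Rpl4, -0.093 and -0.097 for Rps15, -0.019 and -0.020 for Rps16, -0.024 and -0.027 for Rps19 and -0.027 and -0.029 for Rps23. With voom alone they were -0.064 for Rpl13, -0.090 for Rpl14, -0.080 for Rpl22, -0.068 for Rps26 and -0.078 for Rps3a1. With quantile normalization they were 0.070 for Pabpc1, 0.22 for Rpl36, 0.095 for Rpl41, 0.0034 for Rpl7a, 0.11 for Rplp2 and 0.084 for Rps3a3 in dKO, and -0.061 for Rpl28 and 0.11 for Rpl36 in dCD. Sign changes in dKO against dCD were not counted, and some occurred. In that comparison Rpsa went from 0.055, called higher, to -0.050, called lower, with voom. Rps14 went from -0.094, called lower, to 0.044, called higher, with quantile normalization. The scaling sets all these changes by construction, and no other cause was tested. With 1 library left out at a time, 19 to 24 members were higher and 18 to 23 lower in dKO. The counts were 14 to 23 and 3 to 8 in dCD, and 9 to 18 and 28 to 34 in dKO against dCD. Of all 16179 tested genes, 6627 to 7046 were then higher and 4391 to 4626 lower in dKO. Those counts were 4245 to 4629 and 4302 to 4753 in dCD, and 6419 to 6888 and 4120 to 4371 in dKO against dCD. The members' medians were -0.022 to 0.0053, 0.0096 to 0.041 and -0.050 to -0.013 in the 3 comparisons. The log2 ratios of the sums were -0.061 to -0.033 in dKO and -0.0090 to 0.020 in dCD. Replicate numbers did not pair the libraries: deviations of same-numbered libraries correlated at -0.049 to 0.042 and of others at -0.065 to 0.073. With the replicate number as a block, 22 members were higher and 21 lower in dKO, 20 and 6 in dCD, and 15 and 33 in dKO against dCD. The counts over all 16179 tested genes were then 6969 and 4564, 4583 and 4690, and 6768 and 4346. Of the summary results, 155 alternatives kept their value within 1.5 times the count or within 1 SD, and 35 did not. Depth limits Rpl24, at 169 to 347 reads.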
